A study of Rattus norvegicus with 9 samples.

Results

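The genes described here are 32 genes of cholesterol synthesis and sterol handling, found by their symbols among the 34322 genes of the count table of a study on the rat colon carcinoma line CC-531. They were divided by role into 19 synthesis enzymes, 6 genes of SREBP control, 4 genes of uptake and intracellular transport and 3 genes of storage or efflux. mRNA was sequenced in 9 libraries, 3 from each of 3 sample types: ex vivo tumors (1 to 3), CC-531 organoids (p7, p8 and p9) and CC-531 cells (p5, p8 and p11). All come from the same line, an established colon carcinoma line of WAG/Rij rats, and none is labelled as carrying a transgene or as treated with a drug or heat. The ex vivo tumors were collected from the peritoneal cavity of WAG/Rij rats that had been injected intraperitoneally with CC-531 cells at 8 to 10 weeks of age. Such tumors hold host cells beside the carcinoma cells, and the animal behind each was not stated. Organoids were CC-531 cells grown in matrigel, and the cells were kept as a culture in RPMI medium with fetal bovine serum. The p numbers are passages, and whether the 3 libraries of a type are independent cultures was not stated, so the p-values measure the spread between these libraries.

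Cells make cholesterol from acetyl-CoA, by way of mevalonate, farnesyl pyrophosphate, squalene and lanosterol, or take it up with lipoproteins. The transcription factor SREBP-2 (Srebf2) turns on the genes of synthesis and uptake when membrane sterol is low: Scap then escorts it to the Golgi, where the proteases Mbtps1 and Mbtps2 release its active part, while Insig1 and Insig2 hold Scap in the endoplasmic reticulum when sterol is high. The LXR receptors, of which Nr1h2 encodes the beta form, sense oxysterols. They turn on genes such as Abca1, which serves efflux, and Mylip, which limits lipoprotein uptake.

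Promoters of some genes that differed between sample types are shown first, picked by hand. That of Scap is shown as a gene with flat levels and no match. Sequences are those of RefSeq on GRCr8, the 250 bases before the start site read in the direction of the gene. Of the 32 genes, 28 matched an entry, all but Pmvk, Fdft1, Sqle and Stard4. Capitals mark CCAAT, the letters that NF-Y binds, or ATTGG where it lies on the other strand, and matches with 1 mismatch to TCACNCCAC, core letters of the sterol regulatory element, on either strand.
Hmgcs1, chr2:53382054-53382303, plus strand: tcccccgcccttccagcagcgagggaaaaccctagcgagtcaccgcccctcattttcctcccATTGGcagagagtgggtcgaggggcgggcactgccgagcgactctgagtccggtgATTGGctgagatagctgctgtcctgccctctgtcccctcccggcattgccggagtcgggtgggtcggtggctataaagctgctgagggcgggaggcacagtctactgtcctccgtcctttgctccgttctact
Idi1, chr17:66547525-66547774, minus strand: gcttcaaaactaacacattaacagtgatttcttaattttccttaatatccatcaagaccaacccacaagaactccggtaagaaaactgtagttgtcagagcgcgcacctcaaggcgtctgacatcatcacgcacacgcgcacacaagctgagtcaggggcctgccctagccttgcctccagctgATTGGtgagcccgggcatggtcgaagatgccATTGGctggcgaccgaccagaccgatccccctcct
Hsd17b7, chr13:84722755-84723004, minus strand: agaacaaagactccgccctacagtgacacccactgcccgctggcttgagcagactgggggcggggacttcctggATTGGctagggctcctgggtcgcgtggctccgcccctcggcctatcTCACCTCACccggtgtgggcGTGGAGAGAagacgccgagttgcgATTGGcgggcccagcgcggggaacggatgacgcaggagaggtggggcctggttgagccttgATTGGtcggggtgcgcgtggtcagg
Srebf2, chr7:115543057-115543306, plus strand: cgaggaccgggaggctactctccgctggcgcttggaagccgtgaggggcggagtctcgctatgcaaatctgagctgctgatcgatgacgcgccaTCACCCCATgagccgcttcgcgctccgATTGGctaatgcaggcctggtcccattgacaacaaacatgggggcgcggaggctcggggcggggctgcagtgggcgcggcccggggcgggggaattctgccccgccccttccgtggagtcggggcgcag
Insig1, chr4:8057770-8058019, minus strand: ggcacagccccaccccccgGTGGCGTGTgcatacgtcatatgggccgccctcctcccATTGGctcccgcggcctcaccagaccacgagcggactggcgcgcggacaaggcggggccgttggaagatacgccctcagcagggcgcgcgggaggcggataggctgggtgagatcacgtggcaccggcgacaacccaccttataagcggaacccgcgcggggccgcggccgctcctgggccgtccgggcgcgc
Scap, chr8:119184188-119184437, plus strand: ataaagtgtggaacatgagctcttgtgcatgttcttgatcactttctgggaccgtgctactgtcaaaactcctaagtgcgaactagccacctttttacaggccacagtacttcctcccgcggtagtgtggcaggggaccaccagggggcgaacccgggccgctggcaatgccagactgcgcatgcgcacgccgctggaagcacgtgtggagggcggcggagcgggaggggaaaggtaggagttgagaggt

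CCAAT was found in 19 of the 28 promoters (67.9%) and in 13 of the 16 synthesis enzymes with an entry (81.2%), while 34% of all 33469 promoters held it. TCACNCCAC with at most 1 mismatch was found in 10 of the 28 (35.7%) and in 7 of the 16 enzymes (43.8%), against 20% of all promoters. The exact letters were in 0 of the 28 promoters and in 0.974% of all. Srebf2, for example, held TCACCCCAT 156 bases before its start, and Hsd17b7 held 2 near-matches and 3 CCAAT boxes. The letters CCA belong to both motifs, and none of the matches printed above overlaps another. These are matches of letters and were set against no test. Matches did not follow levels in every gene. Dhcr7 held none although its levels differed between sample types, while Ggps1, with nearly flat levels, held CCAAT.

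Libraries held 12601774 to 24335921 counts, and the ranges of the sample types overlapped. All 32 genes passed the filter on low counts that left 13331 genes for testing. A gene was called when edgeR's quasi-likelihood test, fitted on all 9 libraries and two-sided, gave a Benjamini-Hochberg adjusted p under 0.05 over those genes. Where no other fit or tool is named, rose, fell, passed and called refer to this test. Levels are given as CPM, counts scaled to the TMM-adjusted library size, differences as log2 fold changes with their standard error (SE). The 3 comparisons share libraries, so that a high or low level in 1 sample type enters 2 of them. Markers of colon epithelium such as Epcam, Krt8 and Cdh1 were present throughout, the 10 summing to 4918 to 7476 CPM in ex vivo tumors, 4363 to 5971 in organoids and 3682 to 4156 in cells. Macrophage markers (17 genes) summed to 3885 to 4532 CPM in ex vivo tumors, 26.1 to 72.8 in organoids and 37.7 to 58.7 in cells, with C1qa, C1qc and Cd163 at 0 in every culture library. Most of the sum in each culture library was Cd14, at 68.6 CPM in organoid p7 beside 64.7 to 85.2 in ex vivo tumors. Fibroblast markers (12 genes) summed to 4941 to 10131 CPM in ex vivo tumors, 6.51 to 15.6 in organoids and 4.12 to 6.04 in cells, Dcn and Lum being at 0 in every culture library. Ex vivo tumor 1 differed from tumors 2 and 3 in other host markers. Adipocyte markers (6 genes) summed to 441, 16.6 and 20.1 CPM in ex vivo tumors 1 to 3, and hepatocyte markers (8 genes) to 201, 41.8 and 87.0. In such bulk samples, fewer carcinoma cells and less RNA per carcinoma cell cannot be told apart, and the part of the host cells in the levels of the ex vivo tumors was not tested.

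Organoid p7 and cells p8 stood apart from the other libraries of their types in the sterol genes. Organoid p7 lay far below p8 and p9: the mean of p8 and p9 was 4.23-fold that of p7 for the median synthesis enzyme (1.21-fold for Ggps1 to 7.89-fold for Mvd), and p8 and p9 were both at least 2-fold over p7 in 17 of 19. By contrast, p9 was 0.858 to 1.02 times p8 over the same enzymes. Organoid p7 lay within the range of the cell libraries for 14 of the 19 enzymes, above it for 4 and below it for 1, Msmo1. Cells p8 was the lowest cell library for 18 of the 19 enzymes, the median being 0.530 times the mean of p5 and p11. The shares of all genes with these splits were not counted, so they are not shown to be particular to the sterol genes. Without organoid p7, 25.4% of all genes were called in organoids against cells, beside 10.7% with all libraries and 3.86% without cells p8. The main counts of calls are therefore also given without 1 or the other of these libraries, an alternative in which 1 sample type keeps 2 libraries and the spread is taken from all types.

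The synthesis enzymes were highest in organoids p8 and p9 and lowest in the ex vivo tumors. Summed over the 19 enzymes, the level was 1763, 1771 and 1743 CPM in ex vivo tumors 1 to 3. It was 4228 CPM in organoid p7, 17820 in p8 and 17319 in p9. In cells p5, p8 and p11 it was 5177, 2513 and 5502 CPM. In this sum the ex vivo tumors were alike and all below every culture, while organoid p7 lay among the cells. Each of the 19 enzymes had its highest level in organoid p8 or p9, and 16 had their lowest in an ex vivo tumor.

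**Figure D1:**
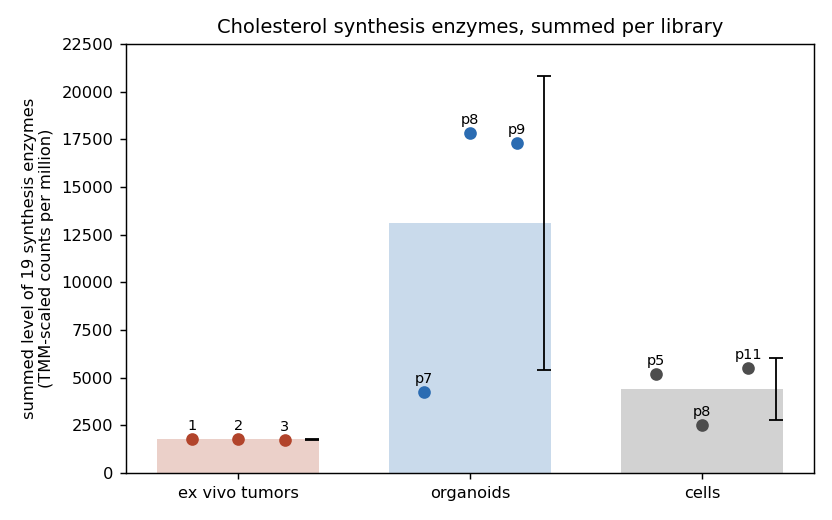
Summed TMM-scaled CPM of the 19 cholesterol synthesis enzymes (y axis) in ex vivo tumors, organoids and cells. Points are libraries, bars the mean of 3 and the error bar beside each its SD: 1759 ± 14.8 CPM in ex vivo tumors, 13122 ± 7707 in organoids and 4398 ± 1640 in cells, with organoid p7 at 4228 CPM far below p8 and p9.

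In organoids against cells, 9 of the 19 synthesis enzymes rose (Mvd, Sqle, Lss, Tm7sf2, Nsdhl, Hsd17b7, Ebp, Sc5d and Dhcr7), and all 19 fold changes were positive, with a median of 1.79 on the log2 scale (0.20 to 2.68) beside 0.03 for all genes tested. Over all 32 genes, 12 rose in organoids where 6.44% of the genes tested rose, and 0 fell by edgeR's test (4.29% of all genes), by DESeq2 or at an unadjusted p under 0.05. In 9 of the 32 genes every organoid library lay above every cell library, as did 16.2% of the genes tested. Without organoid p7, 17 of 19 enzymes rose with a median of 2.21, and 23 of the 32 genes rose where 25.4% of genes were called in either direction. Without cells p8, 2 of the 32 genes rose where 3.86% of all genes were called, and without cells p5, 3 rose where 4.25% were. Of the 12 rises, those of Ebp and Insig2 were kept in all 18 alternatives. The direction held throughout, while the number of calls rested on these libraries.

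In ex vivo tumors against organoids, 21 of the 32 genes fell, 17 of them among the 19 enzymes, where 10.5% of all genes tested fell. The median of the enzymes was -3.08 (-3.79 to -0.30) beside 0.03 for all genes. All ex vivo tumors lay below all organoids, p7 included, for 16 of the 19, a pattern of 19.7% of genes. Pmvk (-1.52, adjusted p = 0.0517 by edgeR's quasi-likelihood test) and Ggps1 (-0.30, adjusted p = 0.280) did not pass. Without organoid p7, 18 of the 19 fell, with a median of -3.52, where 36.6% of all genes were called in either direction. Without cells p8, 17 fell where 20.1% were called, beside 22.7% with all libraries. In ex vivo tumors against cells, 3 of the 32 genes rose, where 12.4% of all genes rose, and 6 fell, 4 of them enzymes (Hmgcs1, Lss, Msmo1 and Hsd17b7), where 6.78% of all genes fell. Fold changes of the enzymes were negative for 18 of 19, with a median of -1.13 (-1.92 to 0.57) beside 0.00 for all genes, and 11 enzymes were lower in every ex vivo tumor than in every cell library. Of the 32 genes, 13 were lower in this way (18.8% of all genes) and 5 higher (22.2%), and the libraries of 41% of all genes did not overlap. Here too the calls moved with single libraries: 13 enzymes fell without organoid p7, 5 without cells p8, and 1 without cells p5, without cells p11 or without ex vivo tumor 1 or 3. Of all genes, 27.6% were called in either direction without organoid p7, 13.1% without cells p8 and 13 to 18.7% in the others, beside 19.2% with all libraries. Organoid p7 belongs to neither type compared here, and enters through the spread, the scaling and the genes kept.

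**Figure D2:**
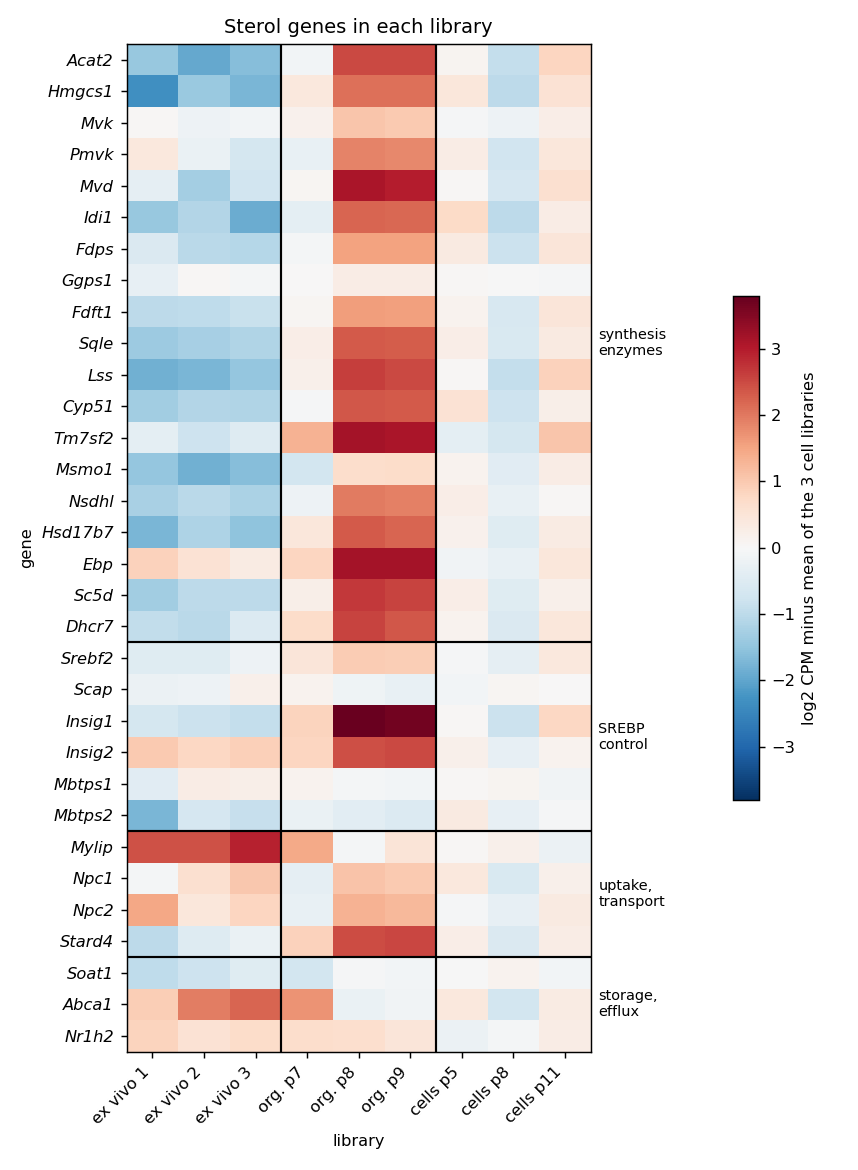
Level of each of the 32 genes (rows, grouped by role) in each library (columns), as log2 CPM minus the mean of the 3 cell libraries, on a scale of -3.8 to 3.8. Organoids p8 and p9 are red for nearly all enzymes, Insig1, Insig2 and Stard4, organoid p7 is close to the cells for most enzymes but red for Tm7sf2, Mylip and Abca1, and the ex vivo tumors are blue for most enzymes but red for Mylip and Abca1.

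The first part of the pathway, from acetyl-CoA to farnesyl pyrophosphate, followed this pattern unevenly. Hmgcs1, which makes HMG-CoA, was at 117, 224 and 177 CPM in ex vivo tumors, 783, 2537 and 2534 in organoids and 798, 300 and 866 in cells. It fell in ex vivo tumors against organoids (-3.50, SE 0.53, adjusted p = 0.0007 by edgeR's quasi-likelihood test) and against cells (-1.92, SE 0.50, adjusted p = 0.0192), the second call being lost without cells p5 or p11 or ex vivo tumor 1 or 3 (adjusted p = 0.0596 to 0.0887). No ex vivo tumor overlapped a culture library, whereas organoid p7 lay between the cell libraries. Acat2, the cytosolic thiolase that joins acetyl-CoA units, was at 70.6, 50.0 and 62.2 CPM in ex vivo tumors, 180, 1096 and 1095 in organoids and 205, 102 and 338 in cells. It fell in ex vivo tumors against organoids (-3.70, SE 0.63). Its difference between ex vivo tumors and cells, -1.82, narrowly missed the threshold (adjusted p = 0.0504, edgeR).

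Mvd, which turns mevalonate pyrophosphate into isopentenyl pyrophosphate, was at 41.4, 21.6 and 31.6 CPM in ex vivo tumors, 55.3, 455 and 418 in organoids and 53.9, 33.7 and 80.2 in cells. It rose in organoids against cells (2.47, SE 0.62, adjusted p = 0.0294, edgeR), although p7 stayed among the cells. The rise was lost without organoid p8 or p9 or cells p5 or p8 (adjusted p = 0.0789 to 0.130, edgeR). It was also lost with only the 6 libraries compared (adjusted p = 0.0725, edgeR) and after quantile normalization (adjusted p = 0.130, limma). Idi1, the isomerase of the next step, was at 66.6, 83.3 and 49.3 CPM in ex vivo tumors, 140, 845 and 828 in organoids and 300, 90.1 and 219 in cells. Idi1 fell in ex vivo tumors against organoids (-3.18, SE 0.62), and organoid p7 again lay within the cells. Fdps, which makes farnesyl pyrophosphate, was at 367, 264 and 252 CPM in ex vivo tumors, 504, 1550 and 1526 in organoids and 679, 300 and 740 in cells, and fell in ex vivo tumors against organoids (-2.02, SE 0.45). The smallest movement among called enzymes was that of mevalonate kinase, Mvk, at 34.6, 29.5 and 31.0 CPM in ex vivo tumors, 38.0, 69.2 and 67.8 in organoids and 32.3, 29.5 and 39.9 in cells. Its fall against organoids (-0.88, SE 0.25, adjusted p = 0.0277, edgeR) did not hold in every fit. It was lost with only the 6 libraries compared and without organoid p8 or p9 or any 1 ex vivo tumor (adjusted p = 0.0545 to 0.115, edgeR). Ggps1, which leads from this pathway to geranylgeranyl pyrophosphate and so away from sterols, ranged from 21.9 to 33.3 CPM over the 9 libraries. It was called in no comparison by edgeR's test, and in ex vivo tumors against organoids by limma-voom with library weights (-0.33, adjusted p = 0.0416). Its interval in organoids against cells ran from -0.23 to 0.62. Pmvk, phosphomevalonate kinase, ranged from 24.8 to 152 CPM over the 9 libraries, with organoids p8 and p9 the highest.

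From farnesyl pyrophosphate to lanosterol, Fdft1, Sqle and Lss all fell in ex vivo tumors against organoids, with the libraries apart. Sqle, squalene epoxidase and a rate-limiting enzyme of the pathway, was at 131, 143 and 153 CPM in ex vivo tumors, 403, 1725 and 1684 in organoids and 408, 227 and 430 in cells. It rose in organoids against cells (1.84, SE 0.46, adjusted p = 0.0286, edgeR). That call was lost without organoid p8 or p9 or cells p5 or p8 (adjusted p = 0.0894 to 0.130, edgeR). It was also lost with only the 6 libraries compared (adjusted p = 0.0746, edgeR) and after quantile normalization (adjusted p = 0.0858, limma). Between ex vivo tumors and cells the difference of Sqle was -1.32 (adjusted p = 0.0649, edgeR). Lss, lanosterol synthase, had the widest range of the enzymes, 22.0-fold between its lowest and highest library. It was at 63.2, 67.8 and 80.7 CPM in ex vivo tumors, 260, 1393 and 1279 in organoids and 230, 120 and 416 in cells. Lss was called in every comparison: it rose in organoids against cells (1.94, SE 0.56, adjusted p = 0.0499), and fell in ex vivo tumors against cells (-1.86, SE 0.56, adjusted p = 0.0398) and against organoids (-3.79, SE 0.61, adjusted p = 0.0011). The first was lost without any 1 library but organoid p7 or cells p11 (adjusted p = 0.0651 to 0.179, edgeR). The second was lost without cells p5 or p11 or any 1 ex vivo tumor (adjusted p = 0.0802 to 0.140, edgeR). The first was also lost with only the 6 libraries compared, housekeeping centering, a stricter filter or filterByExpr (adjusted p = 0.0510 to 0.104, edgeR). After quantile normalization both were lost (adjusted p = 0.119 and 0.0775, limma), and the second also with a stricter filter (adjusted p = 0.0527, edgeR). Fdft1, squalene synthase, was at 87.4, 89.2 and 98.0 CPM in ex vivo tumors, 186, 532 and 518 in organoids and 193, 115 and 243 in cells, and fell in ex vivo tumors against organoids (-2.17, SE 0.39). In the other comparisons Fdft1 did not pass by edgeR's test on the 13331 genes and 9 libraries, while DESeq2 called it in organoids against cells (1.17, adjusted p = 0.0187) and in ex vivo tumors against cells (-1.02, adjusted p = 0.0353).

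The 8 enzymes that turn lanosterol into cholesterol held 6 of the 9 rises in organoids against cells. Their median was 1.93, that of the 3 squalene enzymes 1.84 and that of the 7 mevalonate enzymes 1.57, and these medians were not tested against each other. Ebp, the sterol isomerase, was at 31.6, 25.2 and 21.2 CPM in ex vivo tumors, 30.1, 153 and 154 in organoids and 15.5, 14.0 and 23.2 in cells. It was the enzyme with the largest rise in organoids against cells (2.68, SE 0.50, adjusted p = 0.0076, edgeR), with every organoid above every cell library, and the call was kept in all 18 alternatives. Ebp was also the exception among the enzymes in ex vivo tumors against cells, with a positive difference of 0.57 (-0.49 to 1.62) that did not pass. Tm7sf2, a sterol reductase, was at 19.2, 14.3 and 17.6 CPM in ex vivo tumors, 62.3, 226 and 216 in organoids and 19.1, 15.7 and 51.7 in cells. It rose in organoids against cells (2.54, SE 0.52, adjusted p = 0.0118), and even p7 exceeded the cells. The rise was lost without cells p5 (adjusted p = 0.0681, edgeR) or p8 (adjusted p = 0.0595).

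Hsd17b7, a ketoreductase of the demethylation steps, was at 5.70, 8.59 and 6.61 CPM in ex vivo tumors, 26.4, 97.1 and 90.3 in organoids and 21.5, 14.1 and 24.1 in cells. With no overlap between any 2 sample types, it was called in all comparisons: 1.84 (SE 0.42) in organoids against cells, -1.51 (SE 0.43) in ex vivo tumors against cells and -3.35 (SE 0.45) in ex vivo tumors against organoids. The first was lost in the fit of the 6 libraries, after quantile normalization and without organoid p8 or p9 or cells p5 or p8 (adjusted p = 0.0545 to 0.0997, edgeR or limma), and the second without cells p5 or p11 or any 1 ex vivo tumor (adjusted p = 0.0550 to 0.114). Msmo1, the methylsterol oxidase, went another way in the organoids, at 172, 132 and 155 CPM in ex vivo tumors, 293, 748 and 762 in organoids and 519, 354 and 577 in cells. Organoid p7 was below all cells and p8 and p9 above them, and the difference of 0.32 in organoids against cells did not pass (interval -0.42 to 1.06). It fell in ex vivo tumors against cells (-1.66, SE 0.35, adjusted p = 0.0061, edgeR), the only fall of a sterol gene in that comparison kept in all 18 alternatives. Cyp51, the lanosterol demethylase, was at 321, 370 and 366 CPM in ex vivo tumors, 780, 4132 and 4055 in organoids and 1185, 466 and 949 in cells. In organoids against cells its difference of 1.79 narrowly missed the threshold (adjusted p = 0.0543, edgeR), and it fell in ex vivo tumors against organoids (-3.08, SE 0.56).

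Nsdhl, the dehydrogenase of the demethylation steps, was at 51.3, 59.9 and 52.0 CPM in ex vivo tumors, 106, 478 and 455 in organoids and 145, 98.7 and 124 in cells. Sc5d, a sterol desaturase, was at 77.6, 97.1 and 95.8 CPM in ex vivo tumors, 224, 1246 and 1154 in organoids and 230, 141 and 221 in cells. Dhcr7, the reductase that yields cholesterol at the end of the pathway, was at 30.5, 28.9 and 41.2 CPM in ex vivo tumors, 95.6, 352 and 303 in organoids and 64.1, 40.0 and 79.8 in cells. All 3 rose in organoids against cells (Nsdhl 1.50, Sc5d 2.15 and Dhcr7 2.03), and of these only Dhcr7 had p7 above all cells. The rise was lost for Nsdhl without any 1 library but organoid p7 (adjusted p = 0.0646 to 0.185, edgeR). For Sc5d it was lost without organoid p8 or p9 or cells p5 or p8 (adjusted p = 0.0629 to 0.106, edgeR) and for Dhcr7 without cells p5 or p8 (adjusted p = 0.0607 and 0.0682, edgeR). Nsdhl and Sc5d also lost it with only the 6 libraries compared (adjusted p = 0.101 and 0.0634, edgeR) and after quantile normalization (adjusted p = 0.164 and 0.0765, limma). Nsdhl lost it as well with housekeeping centering, a stricter filter or filterByExpr (adjusted p = 0.0511 to 0.0608, edgeR). All 3 fell in ex vivo tumors against organoids (Nsdhl -2.67, Sc5d -3.28 and Dhcr7 -2.90), and none passed in ex vivo tumors against cells, where the differences were -1.17, -1.13 and -0.87.

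**Figure D3:**
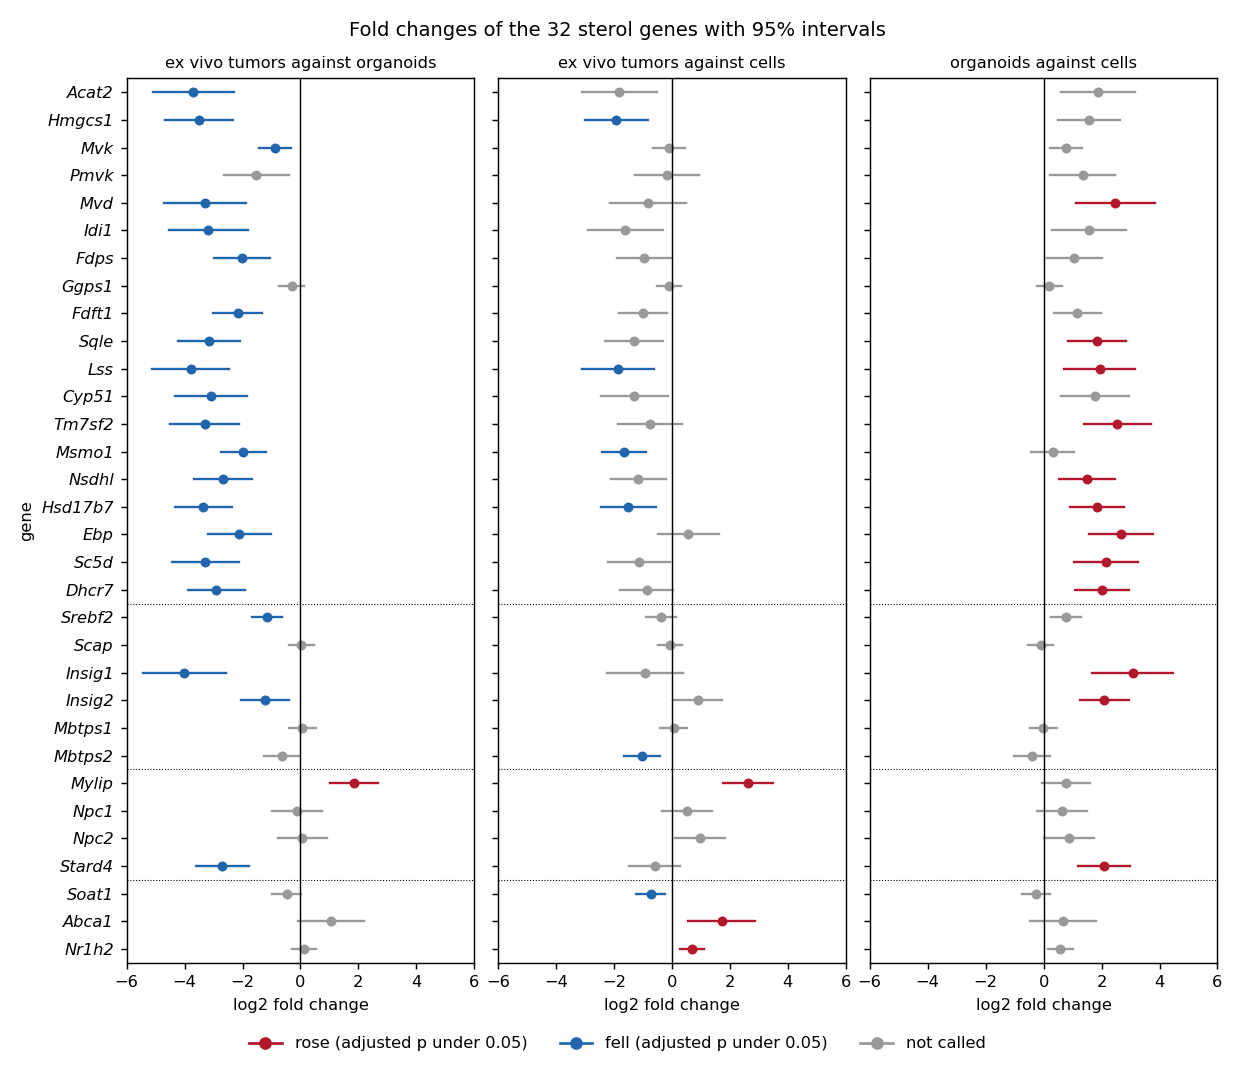
Log2 fold changes (x axis) of the 32 genes (rows, grouped by role) in ex vivo tumors against organoids, ex vivo tumors against cells and organoids against cells. Points are fitted values, lines 95% intervals, red a rise, blue a fall and grey no call. Calls number 21 falls and 1 rise against organoids, 6 falls and 3 rises in ex vivo tumors against cells, and 12 rises in organoids against cells.

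Of the 6 genes of SREBP control, Insig1 and Insig2 rose in organoids against cells, Insig1, Insig2 and Srebf2 fell in ex vivo tumors against organoids, and Mbtps2 fell in ex vivo tumors against cells. Insig1, which retains Scap in the endoplasmic reticulum and is itself a target of SREBP-2, was at 64.5, 57.3 and 54.7 CPM in ex vivo tumors, 182, 1370 and 1279 in organoids and 105, 57.5 and 175 in cells. It had the largest changes of the 32 genes in 2 comparisons, a rise of 3.07 in organoids against cells (SE 0.63, adjusted p = 0.0118, edgeR) and a difference of -4.00 in ex vivo tumors against organoids (SE 0.66, adjusted p = 0.0013). All organoids were above all cells, p7 only just, and the rise was lost without cells p5 (adjusted p = 0.0664) or cells p8 (adjusted p = 0.0613). In ex vivo tumors against cells, with cells p8 within the range of the ex vivo tumors, the difference was -0.93 (interval -2.23 to 0.37).

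Insig2, its relative, was at 16.0, 13.7 and 14.9 CPM in ex vivo tumors, 14.2, 43.7 and 45.4 in organoids and 9.14, 6.34 and 8.70 in cells. It rose in organoids against cells (2.09, SE 0.39, adjusted p = 0.0071, edgeR), a call kept in all 18 alternatives. Unlike Insig1, Insig2 was higher in every ex vivo tumor than in every cell library, but the difference of 0.88 did not pass (adjusted p = 0.133). Against organoids it fell by 1.21 on the log2 scale (SE 0.38, adjusted p = 0.0397, edgeR), with p7 among the ex vivo tumors. That call was lost with only the 6 libraries compared and on leaving out any library but organoid p7 (adjusted p = 0.0501 to 0.156, edgeR).

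Srebf2, which encodes the transcription factor itself, was at 152, 153 and 184 CPM in ex vivo tumors, 284, 406 and 395 in organoids and 202, 163 and 273 in cells. It fell in ex vivo tumors against organoids (-1.15, SE 0.24, adjusted p = 0.0058, edgeR). Every organoid was above every cell library, but the difference of 0.77 (SE 0.24, adjusted p = 0.0629) did not pass by edgeR's test on all libraries. It passed with DESeq2 (adjusted p = 0.0212), with limma-voom and library weights, and in edgeR without organoid p7, at 0.88 (adjusted p = 0.0163), or without cells p11, at 0.98 (adjusted p = 0.0311). Scap ranged from 88.5 to 124 CPM over the 9 libraries and Mbtps1 from 101 to 166, and neither was called. Their intervals in organoids against cells were -0.53 to 0.32 for Scap and -0.48 to 0.46 for Mbtps1. Mbtps2, the other SREBP protease, was at 19.6, 42.0 and 35.5 CPM in ex vivo tumors, 55.4, 49.7 and 45.4 in organoids and 82.7, 53.0 and 63.7 in cells. It fell in ex vivo tumors against cells (-1.04, SE 0.28, adjusted p = 0.0242), the tumors lying below all culture libraries, and the call was lost without cells p5 (adjusted p = 0.0998, edgeR) or ex vivo tumor 1 or 3 (adjusted p = 0.0522 and 0.0546).

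Among the genes of uptake and transport, Stard4 and Mylip moved in opposite directions in ex vivo tumors against organoids. Stard4, a carrier of cholesterol through the cytosol, was at 28.6, 40.9 and 47.8 CPM in ex vivo tumors, 105, 320 and 336 in organoids and 68.9, 39.4 and 69.6 in cells. It rose in organoids against cells (2.10, SE 0.41, adjusted p = 0.0094, edgeR) and fell in ex vivo tumors against organoids (-2.69, SE 0.42, adjusted p = 0.0009), and organoid p7 was above every cell library. The rise was lost without cells p8 (adjusted p = 0.0539, edgeR). Mylip, a ubiquitin ligase that marks lipoprotein receptors for breakdown, was at 21.6, 22.0 and 30.8 CPM in ex vivo tumors, 11.1, 3.76 and 5.59 in organoids and 4.07, 4.56 and 3.39 in cells. It rose in ex vivo tumors against cells (2.63, SE 0.39, adjusted p = 0.0006), where 12.4% of genes rose, and against organoids (1.86, SE 0.38, adjusted p = 0.0051), where 12.2% rose. Both calls were kept in all 18 alternatives, and no culture library reached the ex vivo tumors. In organoids against cells the difference of Mylip was positive like that of Stard4, but did not pass (0.77, adjusted p = 0.209, edgeR).

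Npc1 and Npc2, which pass cholesterol out of the lysosome, were called in no comparison by edgeR's test on the 13331 genes and 9 libraries, but limma-voom with library weights called both in organoids against cells and in ex vivo tumors against cells. Npc1 ranged from 49.5 to 106 CPM in ex vivo tumors, 41.2 to 111 in organoids and 34.9 to 68.3 in cells. Npc2 ranged from 149 to 308 CPM in ex vivo tumors, 91.1 to 272 in organoids and 89.4 to 139 in cells. In both, organoid p7 lay below the ex vivo tumors and with the cells, and organoids p8 and p9 were at 104 to 111 CPM for Npc1 and 259 to 272 for Npc2. Without organoid p7 both rose in organoids against cells, Npc1 by 0.95 (adjusted p = 0.0488, edgeR) and Npc2 by 1.22 (adjusted p = 0.0118). Npc2 also passed in ex vivo tumors against cells with no filter (adjusted p = 0.0418, edgeR), in a fit of those 6 libraries (adjusted p = 0.0341) and without organoid p7 (adjusted p = 0.0211).

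By edgeR's test on all 9 libraries, all 3 genes of storage and efflux were called in ex vivo tumors against cells. Abca1 and Nr1h2 rose, where 12.4% of all genes rose, and Soat1 fell, where 6.78% fell. None of them was called in another comparison by this test. DESeq2 also called Nr1h2 in organoids against cells (adjusted p = 0.0396), as did limma-voom with library weights, which called Abca1 and Soat1 in ex vivo tumors against organoids. Abca1, the membrane pump that hands cholesterol to lipoprotein particles, was at 91.7, 187 and 223 CPM in ex vivo tumors, 158, 40.7 and 44.0 in organoids and 63.3, 29.8 and 60.0 in cells. It rose in ex vivo tumors against cells (1.71, SE 0.53, adjusted p = 0.0430, edgeR). Among the organoids Abca1 ran against the enzymes: p7 was the highest, within the range of the ex vivo tumors, and p8 and p9 lay among the cells. Over all organoids the difference of 1.05 in ex vivo tumors against organoids did not pass (adjusted p = 0.165), whereas without p7 it was 2.00 and passed (adjusted p = 0.0028). The rise against cells was lost with housekeeping centering (adjusted p = 0.0678, edgeR) and without any 1 cell library or ex vivo tumor 2 or 3 (adjusted p = 0.0818 to 0.153).

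Nr1h2 was at 89.2, 72.5 and 79.9 CPM in ex vivo tumors, 78.2, 76.5 and 68.6 in organoids and 42.5, 47.4 and 59.9 in cells. It rose in ex vivo tumors against cells by a small amount (0.69, SE 0.19, adjusted p = 0.0278, edgeR). That call was lost with housekeeping centering (adjusted p = 0.136), with no filter (adjusted p = 0.0776) and without organoid p8 or p9, cells p5 or p8, or ex vivo tumor 1 or 3 (adjusted p = 0.0504 to 0.109). Organoids also lay above all cells without passing (0.58, SE 0.19, adjusted p = 0.0767). Soat1, which esterifies cholesterol for storage, was at 153, 172 and 216 CPM in ex vivo tumors, 184, 291 and 278 in organoids and 296, 328 and 277 in cells, and fell in ex vivo tumors against cells (-0.73, SE 0.23, adjusted p = 0.0441, edgeR). The fall was lost after quantile normalization (adjusted p = 0.0771, limma), with a stricter filter (adjusted p = 0.0615, edgeR) and without organoid p9, any 1 cell library or ex vivo tumor 1 or 2 (adjusted p = 0.0554 to 0.137). Macrophage markers summed to 3885 to 4532 CPM in the ex vivo tumors and to at most 72.8 in a culture library, organoid p7, where Cd14 alone made 68.6. Macrophages are known to express Abca1 and Mylip, and their part in these rises was not tested.

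**Figure D4:**
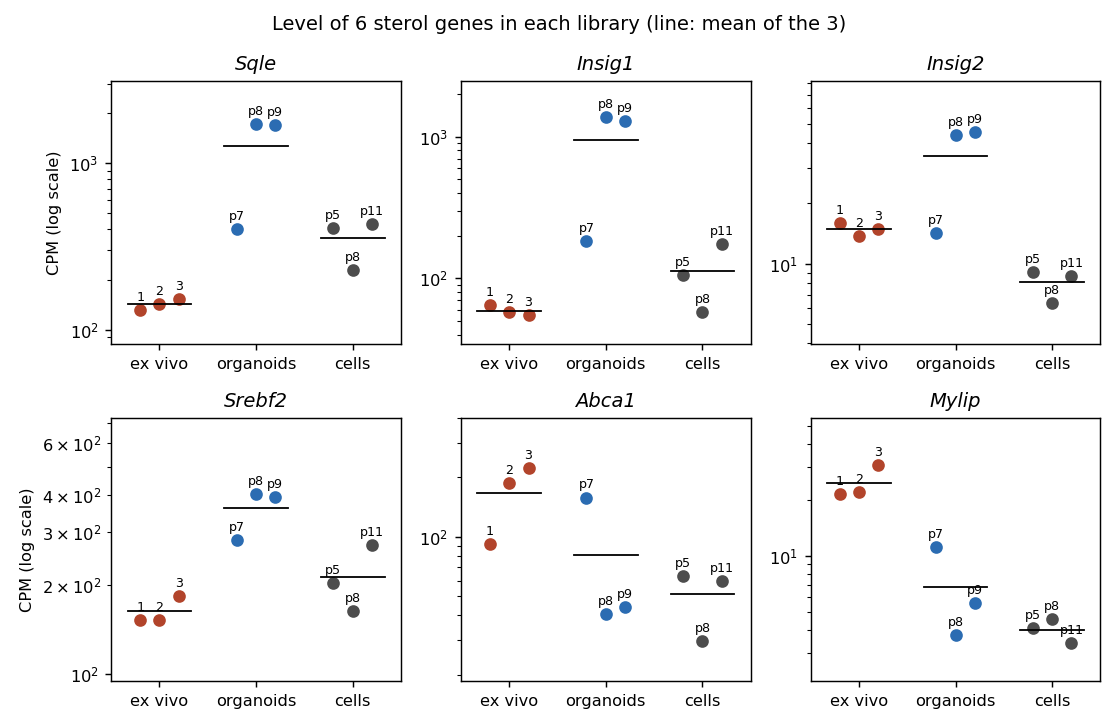
CPM on a log scale (y axes) of Sqle, Insig1, Insig2, Srebf2, Abca1 and Mylip in ex vivo tumors 1 to 3, organoids p7, p8 and p9 and cells p5, p8 and p11. Points are libraries and lines the mean of 3. Organoid p7 lies apart from p8 and p9 in every panel, below them for Sqle, both Insig genes and Srebf2 and above them for Abca1 (158 against 40.7 and 44.0 CPM) and Mylip.

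Over the 9 libraries, which share 3 sample types and the pull of organoid p7, the enzymes ran close together. As a description, Pearson's r was taken of a gene's log2 CPM with the mean log2 CPM of the 19 enzymes. That mean includes the enzymes themselves, so that their r is high in part by construction. The r was at least 0.95 for 15 of the enzymes, and lowest for Ggps1 (0.828), Ebp (0.840), Msmo1 (0.888) and Pmvk (0.892). Among the other genes of the module r was 0.984 for Insig1, 0.967 for Stard4, 0.953 for Srebf2 and 0.720 for Insig2, and it was -0.674 for Mylip and -0.579 for Abca1. Outside the module, the genes most like the enzymes by this measure included Ak1 (0.990), which encodes an adenylate kinase, and Gpat3 (0.986), which acylates glycerol phosphate in triglyceride synthesis. Gpat3 was at 6.15, 7.76 and 8.01 CPM in ex vivo tumors, 13.1, 92.5 and 96.0 in organoids and 15.9, 10.6 and 17.7 in cells, with organoids p8 and p9 the highest.

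Other genes around sterol metabolism did not share this pattern as a group. Of 34 further sterol genes, among them lysosomal, esterase, oxysterol and sterol transfer genes, 32 were tested. In organoids against cells 3 rose and 2 fell (6.44% and 4.29% of all genes), with a median of 0.07. In ex vivo tumors against cells 5 rose and 2 fell (12.4% and 6.78% of all genes), with a median of 0.10, and against organoids 4 rose and 2 fell (12.2% and 10.5% of all genes), with a median of 0.02. For 14 genes of the isoprenoid branches (dolichol, ubiquinone and protein prenylation), which draw on the same farnesyl pyrophosphate, the medians were 0.04 in organoids against cells, -0.05 in ex vivo tumors against cells and -0.05 in ex vivo tumors against organoids.

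Another group of genes followed the same split of the organoids. Of 15 hypoxia and glycolysis genes, 14 rose in organoids against cells (median 2.54), where 6.44% of all genes rose. In ex vivo tumors against organoids 14 fell (median -1.79), where 10.5% of all genes fell. Relative to the mean of the cells, the median of these 15 genes was 0.31 to 0.65 in ex vivo tumors, 1.37 in organoid p7, 2.82 in p8 and 2.85 in p9. For the 19 synthesis enzymes the same measure was -1.24 to -1.02 in ex vivo tumors, 0.09 in p7, 2.32 in p8 and 2.21 in p9. The median of 12 proliferation genes was -0.47 to -0.40 in ex vivo tumors, -0.30 in p7, -1.06 in p8 and -0.84 in p9. The part of what the hypoxia and proliferation genes reflect in the levels of the sterol genes was not tested.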

How the data were processed

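Messenger RNA of 9 libraries, 3 each of ex vivo tumors, organoids and cells of the CC-531 line, was prepared with the KAPA mRNA Hyperprep kit and sequenced on an Illumina HiSeq. Per the labels and the study's methods, cutadapt 1.18 removed the first 11 bases and those with a Phred score under 20, STAR 2.7.4 aligned the reads, and FastQC 0.11.9 with MultiQC 1.9 served for quality control. The deposited values are raw whole-number counts per gene, made by the authors from these alignments. Neither the annotation nor the strand setting of the counting is given in the sources used, so reads of a gene and of one overlapping it on the other strand may not be told apart. Totals were 12601774 to 24335921 counts per library. The authors pooled no replicates, and all 9 columns were used.

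Genes with a mean quantile-normalized log2(count + 1) of at least 4 were kept, 13331 of 34322, as in the filter of the study. In R 4.3.3 with edgeR 4.0.16, libraries were scaled by TMM and 1 mean per sample type was fitted to all 9 libraries (glmQLFit, 6 residual degrees of freedom). Pairs of sample types were compared with a two-sided glmQLFTest, and p-values adjusted by Benjamini-Hochberg over all genes tested. The SE is the absolute log2 fold change over the square root of F, and intervals are 95%. Log2 CPM used a prior count of 2. Apart from the alternatives named below, differences between sample types outside this fit were not tested. The labels name no batch. The procedure was tested on simulated counts. These held no library set apart from its type as organoid p7 was, so that test does not bear on such a case.

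The 32 genes, their roles and the other lists (further sterol genes, isoprenoid branches, markers of macrophages, fibroblasts, endothelium, adipocytes, hepatocytes, mesothelium and epithelium, proliferation, hypoxia and housekeeping genes) were chosen with earlier results of these data known. Values in every library are given for each of the 32 called in at least 1 comparison, with ranges for the others. Outside them, the tested genes with the highest Pearson's r with the mean of the enzymes were named. Some genes this rule takes are not reported here. As alternatives, only the 6 libraries compared were fitted, or the following were used: DESeq2 1.42.0 size factors or test, housekeeping centering, limma 3.58.1 with voom and library weights or after quantile normalization, no filter, a stricter filter (a mean of at least 6), filterByExpr and leaving out each library. Promoters came from RefSeq (GRCr8), while the authors aligned to mRatBN7.2. The motifs were searched by letters on both strands. Python 3.11.15 with matplotlib 3.10.9 drew the figures.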

Additional observations from a re-analysis of the deposited data

How the results depend on the processing

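Of the 43 calls, 24 were kept in all 18 alternatives run per comparison: 20 in ex vivo tumors against organoids, 2 in ex vivo tumors against cells (Msmo1 and Mylip) and 2 in organoids against cells (Ebp and Insig2). None of the 43 changed sign in any alternative. The median of the synthesis enzymes kept its sign throughout, and on leaving out 1 library at a time it was -3.52 to -2.77 in ex vivo tumors against organoids, -1.31 to -1.01 in ex vivo tumors against cells and 1.46 to 2.21 in organoids against cells.

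Shares in parentheses are those of all genes called in either direction. In organoids against cells, 12 sterol genes rose (10.7%). The number was 6 in a fit of the 6 libraries compared (6.74%), 21 with DESeq2 (17.7%), 25 with limma-voom and library weights (53.7%) and 6 after quantile normalization with limma (6.71%), and 2 to 23 on leaving out 1 library (23 without organoid p7, 6 without organoid p8 or p9, 3 without cells p5, 2 without cells p8; 3.86% to 25.4%), the falls being 0 each time. In ex vivo tumors against cells, 6 fell and 3 rose (19.2%). Falls numbered 14 in the fit of the 6 libraries (21.7%), 12 with DESeq2 (24.6%), 13 with limma-voom and library weights (32.3%), 15 with no filter (21.1%) and 11 with filterByExpr (28.5%), and 1 to 16 on leaving out 1 library (16 without organoid p7, 3 without ex vivo tumor 2, 2 without cells p11 or ex vivo tumor 3, 1 without cells p5 or ex vivo tumor 1; 13% to 27.6%). Rises numbered 5 in the fit of the 6 libraries, 1 with housekeeping centering (16%) and 6 with limma-voom and library weights, and 1 to 5 on leaving out 1 library (5 without organoid p7, 1 without cells p5, cells p8 or ex vivo tumor 3). In ex vivo tumors against organoids, 21 fell and 1 rose (22.7%). Rises numbered 2 with limma-voom and library weights (56.6%). On leaving out 1 library, rises numbered 1 to 2 (2 without organoid p7) and falls 19 to 23 (13.7% to 36.6%). Npc2 in ex vivo tumors against organoids was 0.07 in the fit of all libraries and -0.51 (adjusted p = 0.0260) with limma-voom and library weights. Apart from the fits without 1 library or with fewer genes or libraries, the cause was not tested. Quantile normalization moved the median of all genes to -0.26 in ex vivo tumors against cells and -0.21 against organoids, and housekeeping centering to -0.11 and -0.09. The split of all genes called was then 1239 higher and 2745 lower against cells after quantile normalization, against 1650 and 904 with TMM, and 1329 and 2951 against organoids, where TMM gave 1631 and 1396.

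No paired analysis was possible because the sample types share fewer than 2 replicate numbers: passage p8 is the only one that cells and organoids have in common, and the ex vivo tumors carry no passage. With 3 libraries a type, differences of 2-fold and more in single genes often stayed below the threshold. One of 3.67-fold, that of Acat2 in organoids against cells, was not called. Genes not called were therefore not shown to be unchanged.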
